A study of Arabidopsis thaliana with 7 samples.

Results

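The genomic sites of the transcription factor HY5 that lie deep inside protein-coding genes were described here. Peaks of 6 ChIP-seq libraries were joined into 10233 sites wherever they shared a base. A site was kept as a deep site if its centre lay inside a protein-coding gene, more than 500 bp from both ends of that gene and more than 1500 bp from the end of every other protein-coding gene. There were 359 deep sites, in 350 genes, and the 9874 other sites are called the remaining sites. Of these, 4152 were centred inside a protein-coding gene but nearer to a gene end, and 5722 lay outside protein-coding genes.

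The compared groups were plants kept under blue light and plants kept under red light, with 3 biological replicates each. All were whole Arabidopsis plants of the Wassilevskija (Ws) accession, with the hy5-ks50 T-DNA insertion and a HY5-YFP fusion, fixed at an age of 10 days. They had been entrained to cycles of equal day and night and then held for 52 hours under blue or red light at a fluence rate of 15 µmol m-2 s-1. Both lights thus share the insertion in HY5 and the fusion protein, and the labels do not say which promoter drives the fusion. Chromatin was pulled down with GFP-Trap agarose beads, which carry an antibody to GFP that also binds YFP. A single mock sample, made from the mixed blue light triplicates with beads lacking the antibody, served as the control for peak calling in both lights, so no mock from red light plants stood beside the red libraries. Plants without the fusion were not analysed here. The plants were of another accession than Columbia, to whose assembly the peak positions and gene models belong.

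HY5 (ELONGATED HYPOCOTYL 5) is a bZIP protein that accumulates in light, when its degradation through the COP1 ubiquitin ligase is relieved, and that drives the seedling's change to growth in light. Like other bZIP factors of plants it binds elements with an ACGT core, and such binding is mostly reported in promoters, just before the start of a gene. Sites inside genes can lie in exons, introns or beside internal and antisense transcripts, and the gene models used here carry neither strand nor exons.

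The libraries held 7.99 to 11.7 M (mega) tags under blue light and 10.6 to 11.9 M under red light. Blue lists had 8524 to 8888 peaks and red lists 4027 to 5672. Red light replicate 1 stood apart, since its peak windows were 549 bp wide where the 5 others had 306 to 348 bp, and its fragment length was estimated at 548 bp, beyond their 188 to 226 bp. Values are tags in the peak window per 10 M tags of the library, and a library without a peak at a site has no value there. A missing value means that no peak passed the authors' thresholds and not that tags were absent.

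Sites became sparse toward the interior of genes. The bases that meet the rule made up 19.3% of the genome and held 3.51% of the sites. This gave 15.6 deep sites per Mb of such sequence, against 102 remaining sites per Mb of all other bases. Inside genes, and with all ends of other genes more than 1500 bp away, the density was 334 sites per Mb (megabase) within 100 bp of a gene end. It was 98.7 sites at 200 to 300 bp and 45.8 at 400 to 500 bp. Among deep sites it was 35.6 per Mb at 500 to 600 bp, 15.8 at 1000 to 1500 bp and 3.86 beyond 2000 bp. The decline in density had no step at 500 bp, and in density the limit of the rule divides a continuous range. No test was made of these densities.

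Deep sites lay a median of 934 bp from the nearer end of their gene, 156 of them more than 1000 bp and 20 more than 2000 bp from both ends. The site farthest inside was centred 3455 bp from the nearer end of AT1G71710. The next were in TGA4 (AT5G10030), which encodes a bZIP factor of the TGA family, at 3361 bp and in AT5G22090 at 3217 bp. All 5 chromosomes carried deep sites, as 2.87% (chromosome 2) to 3.94% (chromosome 4) of their sites. Genes with a deep site had a median length of 3024 bp, against 2833 bp in the 15159 other genes that hold at least 1 base meeting the rule. Of the genes with at least 1000 such bases, 3.18% had a deep site, and of those with fewer bases 1.27%.

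**Figure D1:**
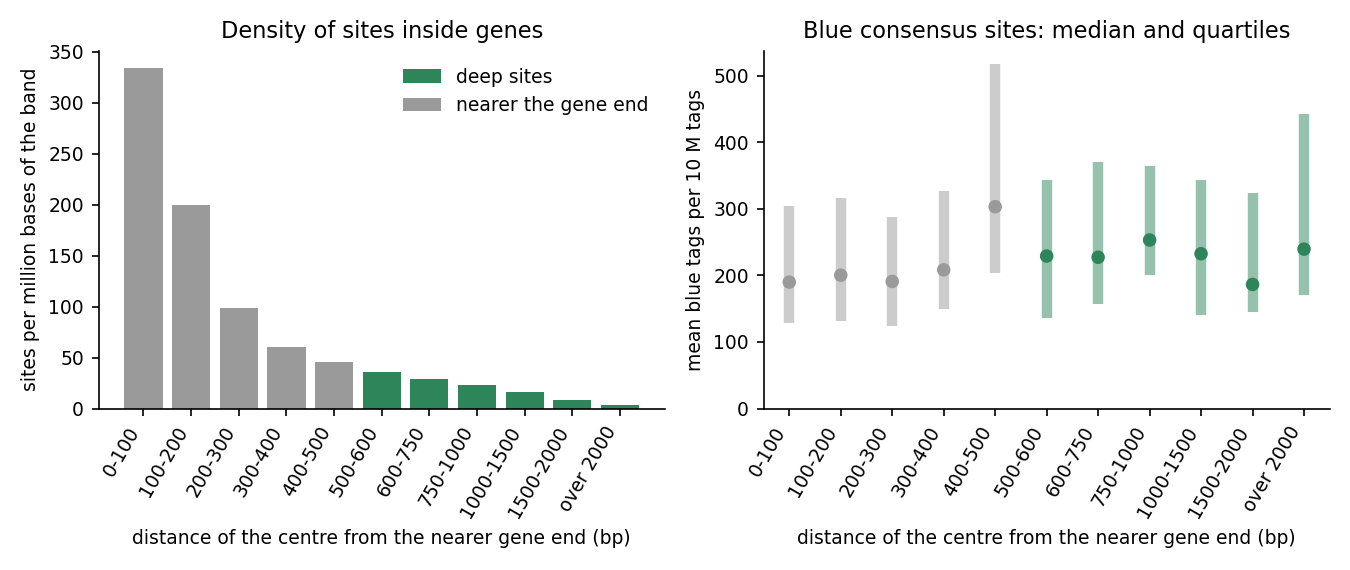
Left, joined sites per Mb by distance of the site's centre from the nearer end of its gene, with ends of other genes more than 1500 bp away (green, deep sites; grey, sites nearer the end). Right, median (point) and quartiles (line) of the mean blue tags per 10 M of sites called in at least 2 of 3 blue libraries. Density falls from 334 sites per Mb at the gene end to 3.86 beyond 2000 bp, while the median stays between 186 and 303 tags in every band.

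Deep sites were about as high as the others. The median over the deep sites called in a library was 237, 239 and 230 tags for blue light replicates 1 to 3, against 216, 215 and 213 over the remaining sites. In red light the medians were 299.95, 186 and 187 tags over deep sites and 296, 173 and 178 over remaining sites. The deep median was the higher in all 6 libraries, by 3.75 to 24.7 tags. Over sites more than 1000 bp inside genes the red difference turned to -3.33 tags, and with equally long lists the blue one turned to -4.90, and its direction thus changed with these settings. The tags of the mock in the same windows were alike too, with medians of 19 at deep and 19 at remaining sites in every blue library and of 17 to 30.5 and 18 to 31 in the red ones. The authors' fold over the surrounding 10000 bp had medians of 6.65 to 6.86 at deep and 7.38 to 7.47 at remaining sites under blue light. In red light these medians were 6.32 to 6.87 and 6.52 to 6.70.

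A consensus site of a light was one called in at least 2 of its 3 libraries. The blue means of the 292 deep blue consensus sites ran from 61.7 to 1643 tags with quartiles of 154 and 348. Over 1000 tags stood 7 of them, or 2.40%, against 2.33% of the remaining blue consensus sites. Just inside the limit, at 500 to 550 bp from a gene end, the 18 blue consensus sites had a median of 229 tags. Just outside it, at 450 to 500 bp, 24 such sites had a median of 345. Calls under red light differed between bands too. A red consensus was found at 64.9% of the blue consensus sites at 300 to 400 bp. The share was 81.0% at 400 to 500 bp and 58.5% at 500 to 600 bp. These differences were not tested.

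The highest deep site lay in AT4G16146, on chromosome 4 at 9143331 to 9143879 (TAIR10, as are all positions), 962 bp from the nearer end of the gene. It had 1685, 1627 and 1618 tags under blue light and 1867, 1264 and 1215 tags under red light. The mock held a median of 51.5 tags in its windows. Among the 3557 sites called in all 6 libraries it ranked 34th by mean tags, and 3 of the 100 highest such sites were deep ones. In AT5G37540, at 14913615 to 14914163 of chromosome 5, a site had 1301, 1312 and 1266 tags under blue light and 1399, 831 and 906 under red light. In both genes red light replicate 1 lay above the blue libraries and the other red replicates below them, so the groups overlapped. Neither log2 fold of blue over red passed in limma (0.21 and 0.35, adjusted p = 0.377 and 0.146), and both did without red light replicate 1 (0.41 and 0.57, adjusted p = 2.13e-13 and 1.30e-18). In that setting 98.1% of all tested sites were higher under blue light. The variance in limma is drawn in part from all sites, so these p-values do not rest on the site's own libraries alone. With each library centred on its median, both leaned to red light (-0.32 and -0.18, limma adjusted p = 3.09e-05 and 0.0294). So did 11.8% of all tested sites at an adjusted p under 0.05.

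EXL3 (AT5G51550) encodes an EXORDIUM-like protein, of a family linked to cell expansion. Its site had 1257, 1228 and 1197 tags under blue light and 1224, 857 and 840 under red light. PUP4 (AT1G30840), of the purine permease family, had 1200, 1138 and 1137 tags under blue light and 976, 651 and 635 under red light. AT1G55550 had 1417, 1375 and 1396 tags under blue light and 1149, 827 and 822 under red light. At PUP4 and AT1G55550 the lowest blue value exceeded the highest red one, and at EXL3 the groups overlapped by red light replicate 1. DTA2 (AT2G45830), AT2G22590 and AT3G22410 completed the 8 highest, with blue means of 1065 ± 81.5, 1053 ± 41.6 and 916 ± 56.3 tags and red means of 799 ± 202, 705 ± 137 and 720 ± 186 tags (SD, n = 3 each). NPQ4 (AT1G44575) encodes PsbS, the photosystem II protein that dissipates excess light energy. Chosen after its values were seen, its site had 934 ± 69.2 tags under blue and 624 ± 180 under red light (SD, n = 3 each) and was centred 1465 bp from the nearer end of the gene.

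**Figure D2:**
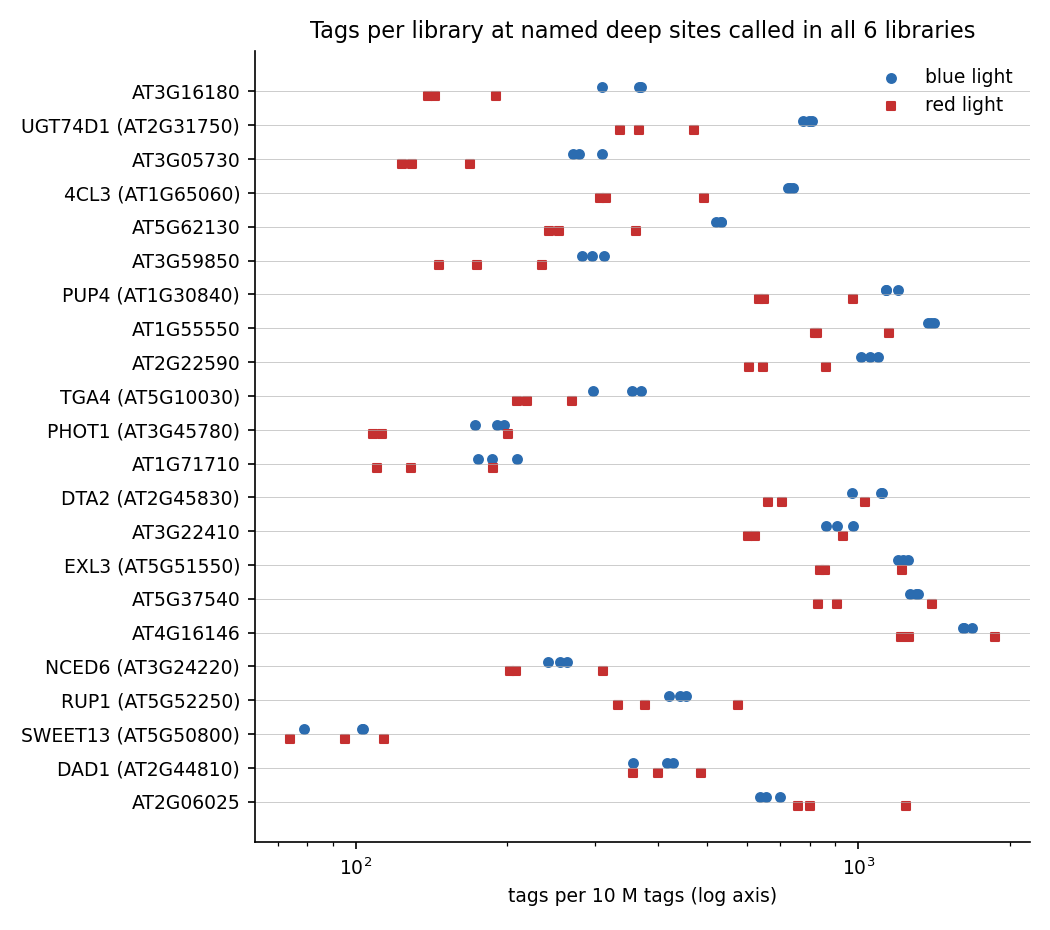
Tags per 10 M (log axis) in each library at the named deep sites called in all 6 libraries, ordered from the highest log2 fold of blue over red at the top (blue circles, blue light; red squares, red light; 3 libraries each). At AT3G16180, UGT74D1, AT3G05730, 4CL3 and AT5G62130 the blue values lie above the red ones, and at AT2G06025 all red values lie above all blue ones.

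Blue libraries called more deep sites than red ones, as was so for all sites. They called 298, 288 and 301 deep sites in blue light replicates 1 to 3 and 150, 199 and 194 in red light replicates 1 to 3. The blue counts averaged 296 ± 6.81 and red ones 181 ± 27.0 (SD, n = 3 each). The groups did not overlap (exact two-sided permutation test, p = 0.1, the smallest that 3 against 3 libraries allow). Deep sites held 0.874% ± 0.0168 of a blue library's tags and 0.492% ± 0.0750 of a red one's (SD, n = 3 each, exact permutation p = 0.1). All peaks together held 24.8% to 25.7% of the tags of blue libraries and 12.7% to 15.9% of those of red ones, per the file headers. As a share of the called sites, deep sites made up 3.39% ± 0.0195 in blue and 3.60% ± 0.112 in red libraries, with every red value above the blue ones (SD, n = 3 each, exact permutation p = 0.1). With lists cut to the 4027 highest peaks of each library, the difference of this share, blue minus red, was 0.182 percentage points, against -0.206 with the full lists.

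**Figure D3:**
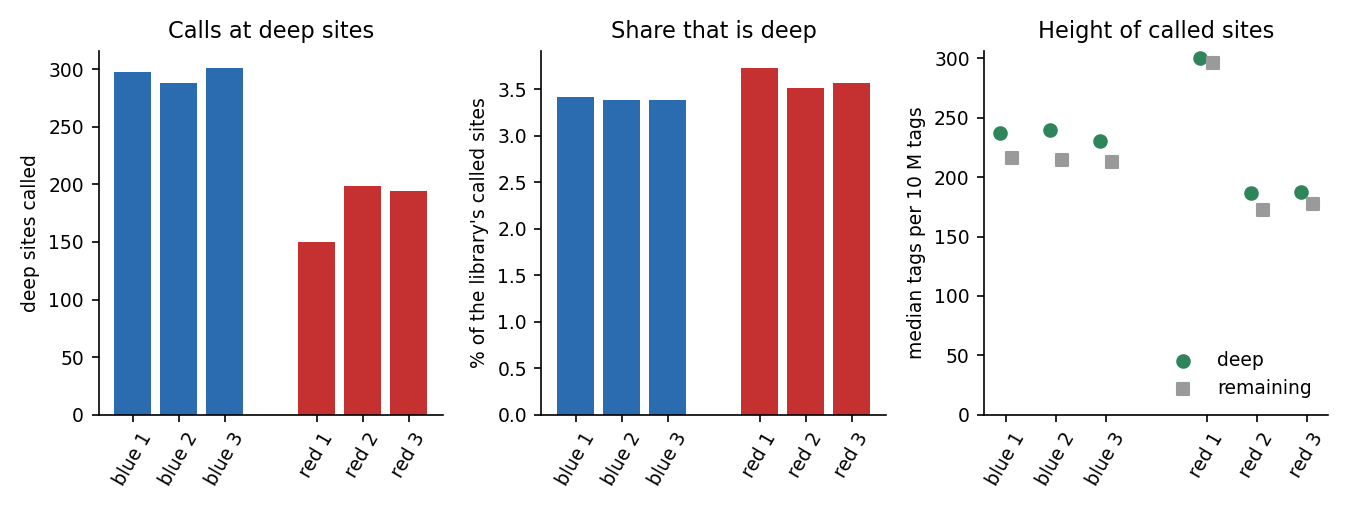
Deep sites called in each library (left), their share of the library's called sites (middle) and the median tags per 10 M of called sites (right; green circles, deep; grey squares, remaining), in 3 blue and 3 red light libraries. Blue libraries call 288 to 301 deep sites and red ones 150 to 199, while the share stays between 3.38% and 3.72%.

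A blue consensus was found at 292 of the 359 deep sites and a red consensus at 175, or 81.3% and 48.7%, against 84.4% and 49.3% of all 10233 sites. Of the deep blue consensus sites 59.6% were red consensus sites too, near the 57.6% of all blue consensus sites. All 6 libraries called 129 deep sites (35.9%, and 34.8% of all sites), and a single library called 61 (17.0%, and 13.9% of all sites). A consensus under red light alone was found at 1 deep site, in AT5G41800, where blue light replicate 3 had 183 tags and red light replicates 2 and 3 had 126 and 119 (0.665% of all sites had a consensus under red light alone).

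Whether a deep site kept its peak under red light went with its height. Of the deep blue consensus sites with 400 or more tags under blue light, 98.3% had a red consensus (95% Wilson interval 91.1 to 99.7), against 97.5% of the remaining ones. At 200 to 400 tags the shares were 69.9% (61.3 to 77.3) of 123 deep and 73.1% of 3073 remaining sites. At 100 to 200 tags they were 29.8% (21.5 to 39.7) of 94 deep and 31.2% of 3229 remaining sites. Of the 15 deep sites under 100 tags 1 had a red consensus, and 9.02% of the remaining ones did. In each class the interval of the deep share holds the share of the remaining sites. The intervals cover counting error over sites only, and sites of one library are not independent.

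**Figure D4:**
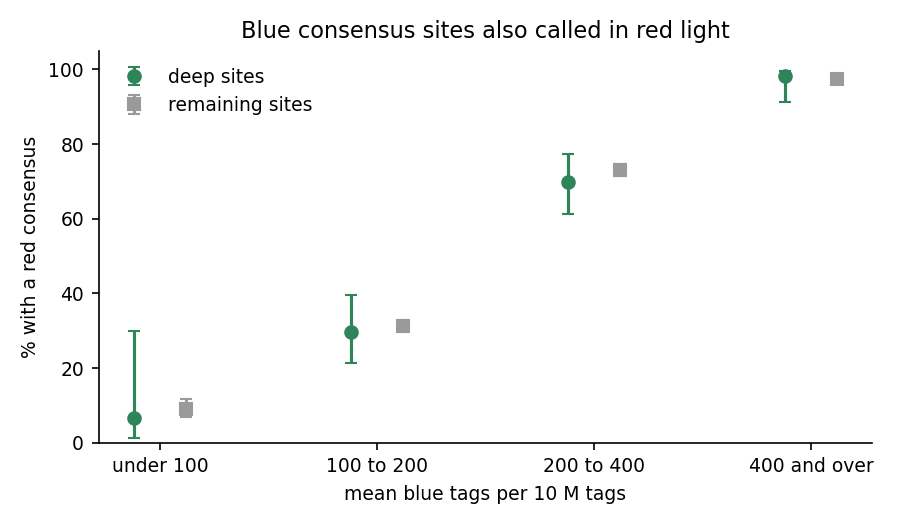
Share of blue consensus sites that were red consensus sites too, by class of mean blue tags per 10 M (green circles, deep sites; grey squares, remaining sites; bars, 95% Wilson intervals). The share runs from 6.67% to 98.3% over the classes of deep sites and from 9.02% to 97.5% over those of the remaining sites.

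Tags of the lights were compared with limma at the 3557 sites that every library called, on log2(tags per 10 M + 1), with p-values adjusted over all these sites. At the 129 deep ones the median log2 fold of blue over red was 0.49, against 0.48 at the remaining 3428. Deep sites higher under blue light numbered 68 (52.7%, with 51.9% of all tested sites called in this direction). None of the 129 was higher under red light by limma (1 was at an unadjusted p under 0.05), where 0.0281% of all tested sites were. At 73 deep sites the lowest of 3 blue values exceeded the highest of 3 red ones (59.4% of all tested sites), and at 1 all 3 red values lay above the blue ones (0.169%).

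The count of 68 depended on which libraries were used. The median log2 fold at deep sites was 0.48, 0.50 and 0.48 without blue light replicate 1, 2 or 3. It was 0.66, 0.39 and 0.39 without red light replicate 1, 2 or 3. Without red light replicate 1, 150 of 155 deep sites (96.8%) were higher under blue light by limma, as were 98.1% of all sites tested, and 1 was higher under red light (0.13% of all). Without blue light replicate 1, 2 or 3, 9, 7 and 5 deep sites were higher under blue light (4.19%, 4.18% and 3.93% of all sites tested). Without red light replicate 2 or 3, 10 and 8 were (5.99% and 5.78% of all). With tags divided by window width 120 deep sites were higher under blue and 1 under red light (96.2% and 0.225% of all). Deep and remaining sites swung together between these settings. The median over sites differed between blue and red libraries by 0.53 on the log2 scale. Relative to that common shift, with each library centred on its median, 12 deep sites leaned to blue light and 17 to red light at a limma adjusted p under 0.05 (7.96% and 11.8% of all tested sites). Centred folds were not balanced about 0. Their median was -0.035 at deep sites and -0.044 at all tested sites, with 38.8% and 39.6% of folds above 0. A lean to red light on this scale does not mean more tags under red light.

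**Figure D5:**
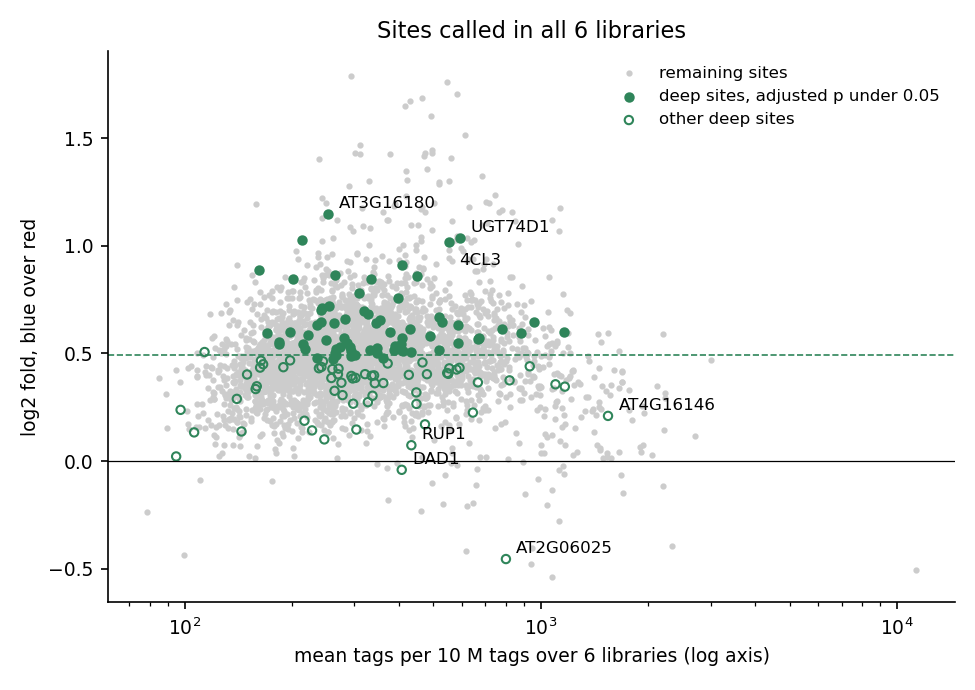
Log2 fold of tags, blue over red light, against the mean tags per 10 M over 6 libraries (log axis) at the 129 deep (green) and 3428 remaining sites (grey) called in all 6 libraries. Filled green points have a limma adjusted p under 0.05, and the dashed line is the deep median of 0.49. AT2G06025 (-0.46) and DAD1 (-0.041) are the deep sites below 0.

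The 5 deep sites that leaned most to blue light lay in AT3G16180, UGT74D1, AT3G05730, 4CL3 and AT5G62130. The site of AT3G16180, which the gene table also lists as nitrate transporter NRT1.12, had 366, 309 and 370 tags under blue light and 190, 140 and 144 under red light. Its log2 fold of blue over red was 1.15 (SE 0.21, limma adjusted p = 5.96e-06). It was centred 1708 bp from the nearer gene end, on the long non-coding RNA gene AT3G03225. UGT74D1 (AT2G31750) encodes a UDP-glucosyltransferase and had 799, 808 and 776 tags under blue light and 470, 366 and 336 under red light (log2 fold 1.04 with SE 0.21, limma adjusted p = 5.69e-05). Its centre, 1306 bp from the nearer end, lay on the long non-coding RNA gene AT2G31751.

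4CL3 (AT1G65060) encodes the 4-coumarate:CoA ligase that serves flavonoid synthesis, a pathway induced by light. Its site, at 24169137 to 24169685 of chromosome 1, was 2214 bp from the nearer end of the gene, and no blue consensus site lay at either gene end. It had 725, 732 and 743 tags under blue light and 493, 306 and 315 under red light (log2 fold 1.02 with SE 0.21, limma adjusted p = 7.82e-05). AT3G05730 had a log2 fold of 1.03 (adjusted p = 9.55e-05) and AT5G62130 one of 0.91 (adjusted p = 0.000481), with blue means of 286 ± 20.2 and 530 ± 6.63 tags and red means of 141 ± 24.7 and 286 ± 65.4 tags (SD, n = 3 each). At all 5 sites the blue values lay above the red ones. Their calls held with any 1 library left out. The sites were picked among those called after centring, so the centred call is no separate support.

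AT2G06025 ran the other way. Its site, at 2349815 to 2350363 of chromosome 2 and 2017 bp from the nearer end, had 656, 698 and 638 tags under blue light and 1245, 800 and 757 under red light. The lowest red value exceeded the highest blue one. The log2 fold was -0.46 (SE 0.22) and missed the threshold in limma (adjusted p = 0.0611). It passed without red light replicate 1 (-0.23, limma adjusted p = 0.000654) and with tags divided by window width (-0.34, limma adjusted p = 0.00298). The site was picked among those called relative to the library medians, where the fold was -0.98 (limma adjusted p = 4.31e-15). The mock held a median of 28.5 tags there.

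DAD1, SWEET13, RUP1 and NCED6 had like tags in both lights and leaned to red light relative to the library medians. DAD1 (AT2G44810), whose phospholipase starts jasmonate synthesis in anthers, had 401 ± 39.0 tags under blue and 414 ± 66.2 under red light (SD, n = 3 each). Its log2 fold was -0.041, or -0.57 relative to the medians (limma adjusted p = 0.854 and 5.70e-07). NCED6 (AT3G24220), an enzyme of abscisic acid synthesis, had 253 ± 10.8 and 241 ± 61.1 tags, with a log2 fold of 0.10 or -0.43 (limma adjusted p = 0.648 and 0.000648). Without red light replicate 1 its fold was 0.30 (limma adjusted p = 0.00413). SWEET13 (AT5G50800), a sugar transporter, had 95.1 ± 14.1 and 94.4 ± 19.9 tags, with a log2 fold of 0.021 or -0.51 (limma adjusted p = 0.936 and 0.00565). Without blue light replicate 3 or red light replicate 2 the relative call at SWEET13 ended (limma adjusted p = 0.0858 and 0.0583).

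RUP1 (AT5G52250) encodes a protein that represses UVR8, which senses UV-B, and carried sites of both kinds. Its deep site, at 21217332 to 21217880 of chromosome 5 and 772 bp from the nearer gene end, had 454, 441 and 420 tags under blue light and 576, 377 and 332 under red light. The blue values lay within the red range. The log2 fold was 0.073 (limma adjusted p = 0.739), or -0.45 relative to the library medians (adjusted p = 1.71e-05). Without red light replicate 1 it was 0.31 (limma adjusted p = 0.000297). A site at an end of the same gene, 1566 bp away, had 744 ± 28.6 tags under blue light (SD, n = 3) and no red peak. The mock held a median of 12.5 tags at the deep site and 52.0 at the end site, and its part in the missing red peak was not tested.

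Most genes with a deep site had no blue consensus site at an end. Of the 286 genes with a deep blue consensus site, 87 (30.4%) also had a blue consensus site at an end, within 1500 bp outward or 500 bp inward. Genes with any deep site had such an end site in 28.9% of cases, against 47.7% of the 15159 genes that could hold a deep site and had none. With at least 1000 bp that meet the rule the shares were 28.2% and 49.8%, and with fewer 30.5% and 45.5%. Within a library, peaks were kept at least 612 to 1098 bp apart by the caller, and the part of this spacing in the difference was not tested. In the 87 genes with both, a red consensus was found at both kinds of site in 22, at the deep one alone in 22, at the end alone in 25 and at neither in 18. Of all 8633 blue consensus sites, 57.6% had a red consensus. The deep site was higher under blue light than every end site in 36 of the 87 genes. No test was made of these counts.

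NPQ4 and AT5G55180 had a red consensus at the deep site alone. The end site of NPQ4 had 377 ± 8.34 tags in 2 blue libraries, and that of AT5G55180 had 291 ± 6.76 in all 3, with no red peak at either. GATA1 (AT3G24050), a zinc finger transcription factor, and NAC032 (AT1G77450), a stress-responsive NAC factor, showed the reverse. The GATA1 deep site had 284 ± 4.69 tags under blue light and no red peak, while its end site had 730 ± 65.6 tags under blue and 494 under red light. The NAC032 deep site had 280 ± 26.1 tags under blue light and no red peak, and an end site 378 ± 24.7 under blue and 281 under red light (SD, n = 3 unless stated). Another end site of NAC032 had 286 ± 8.55 tags under blue light and 191 in 1 red library, and thus no red consensus. NPQ4 and AT5G55180 were chosen after their values were seen.

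GATA1, AT1G24530, NAC032, AT4G19390 and AT1G15800 had the highest deep sites called in all 3 blue and no red library, with blue means from 273 tags (AT1G15800) to 284 tags (GATA1). There were 42 such sites (11.7%, and 14.9% of all sites). No deep site was called by all 3 red and no blue libraries (0.00977% of all sites were). A single red library and no other called 10 of the 359 deep sites, and 1.25% of all sites were called in this way. Among the 10 was PIN3 (AT1G70940), an auxin efflux carrier, with 124 tags for red light replicate 3.

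Of 113 listed genes of the clock, light, flavonoid and hormone pathways and of chromatin, 95 could hold a deep site and 7 did (7.37%). Among all 15509 genes that could hold one, 2.26% did. The lists were chosen with earlier results of these data known and were not matched for the bases that meet the rule. Of the 7 genes, RGA1 and PIN3 were called in 1 library each. The difference in shares was not tested. None of the 22 clock genes that could hold one did. Of 17 light signalling genes RUP1 had one, of 16 flavonoid genes 4CL3, and of 10 photoreceptors PHOT1 (AT3G45780), the main phototropin of blue light responses. PHOT1 had 198, 191 and 173 tags under blue light and 201, 108 and 113 under red light, so the groups overlapped by red light replicate 1 (log2 fold 0.47, SE 0.22, limma adjusted p = 0.0640). Without that library the fold was 0.75 (limma adjusted p = 7.60e-09), and relative to the library medians it was -0.061 (adjusted p = 0.763). None of 10 chromatin, small RNA and other long genes had a deep site.

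Of 20 hormone genes 4 had a deep site. PIN7 (AT1G23080), another auxin efflux carrier, had 168 ± 15.3 tags under blue light (SD, n = 3) and 118 for red light replicate 2. WOL (AT2G01830), the cytokinin receptor also called AHK4, had 175 ± 10.3 under blue light (SD, n = 3) and 125 for red light replicate 3. RGA1 (AT2G01570), a DELLA repressor of gibberellin responses, was called in blue light replicate 2 alone with 150.3 tags, and PIN3 in 1 red library. None of these 4 had a red consensus. The blue values of PIN7, WOL and RGA1 were below 233 tags, the median of deep blue consensus sites.

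More than 1 deep site was found in 9 genes, each with 2, and the 5 genes with the highest such sites are given first. CSLA02 (AT5G22740), a glucomannan synthase of the cellulose synthase-like family, had a site with 238 ± 10.2 tags under blue light and 260 and 163 tags for red light replicates 1 and 3, and another with 158 ± 29.5 under blue light and no red peak. In AT5G22090 the sites had 251 ± 7.88 and 240 ± 4.40 tags under blue light (SD, n = 3 each). The first had no red peak and the second had 134 and 145 tags for red light replicates 2 and 3. AT3G59850 had 1 site in all 6 libraries, with 297 ± 14.6 tags under blue and 185 ± 45.3 under red light (SD, n = 3 each, log2 fold 0.70, limma adjusted p = 0.00813), and another with 138 ± 6.43 in 2 blue libraries. Relative to the library medians the first had a log2 fold of 0.18 (limma adjusted p = 0.214). Its call also ended without any one library other than red light replicate 1, with folds of 0.55 to 0.74 (adjusted p = 0.0690 to 0.118). BEL1 (AT5G41410), a homeodomain factor of ovule development, had 2 sites called in 2 blue libraries each, with 219 ± 16.5 and 136 ± 1.91 tags and no red peak. In AT5G04310 the sites had 265 ± 11.3 tags in 3 and 182 ± 5.09 in 2 blue libraries, and the first had 262 and 186 tags for red light replicates 1 and 3. In AT5G41380 the 2 sites were adjoining windows that shared no base. Each was called in 1 library, with 69.3 tags for blue light replicate 1 and 66.3 for blue light replicate 2, so they may not be distinct. TPS1 and AT4G21903 each had a site called in 1 blue library alone. Over all 9 genes a red consensus was found at both sites in 1, at 1 site in 4 and at neither in 4. The gene with both was CYP707A1 (AT4G19230), an abscisic acid hydroxylase named after its values were seen. Its sites had 148 ± 21.6 (SD, n = 3) and 131 ± 8.91 tags (SD, n = 2) under blue light, against 103 ± 18.5 and 87.6 ± 6.08 tags (SD, n = 2 each) under red light.

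A further gene without protein product covered the centre of 12 deep sites (3.34%), against 2.10% of the 4152 other sites inside genes. Of these genes 10 were long non-coding RNAs, at UGT74D1 and AT3G16180 among others. Further examples, named after their values were seen, lay in GTE7, a bromodomain protein gene with 543 ± 62.9 tags under blue and 416 ± 101 under red light (SD, n = 3 each), in HSFC1, a heat stress factor gene, and in GIL1. HSFC1 had 305 ± 23.8 tags under blue light (SD, n = 3) and 186 in 1 red library, and GIL1 170 ± 20.5 (SD, n = 3) and 106 in 1 red library.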

How the data were processed

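For every blue and red library the authors ran HOMER's findPeaks in factor style with the mock as background, per the file headers (HOMER 4.9, build TAIR10, per the submitters' processing notes). Peaks had to stand 4-fold over both the mock and the 10000 bp around them, with Poisson p-values up to 0.0001 and a false discovery rate of 0.001. Alignment is not described in the sources used here. The deposited signal is a tag number that the authors scaled to 10 M tags per library. The lists' unscaled mock signal and the authors' fold (ratio) over the mock and the surroundings were used as deposited. The deposited p-value of each peak and the caller's deposited score were not used.

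Peaks sharing 1 bp or more were joined, and a site's centre is the median of its peak centres. In 1 pair of site and library the higher of several peaks was taken. Protein-coding genes, names and lengths came from the RefSeq gene table of TAIR10.1, which carries no strand, exons or sequence, so no sequence is shown and the planned motif search was not run. Names fit for counting gene classes were found for 39.4% of genes with a deep site, so that count is void. The members and lists were chosen with earlier results of these data known.

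Sites that every library called were tested with limma 3.58.1 (trend; R 4.3.3) on log2(tags per 10 M + 1), a scale that slightly understates folds of low sites. P-values were adjusted by Benjamini-Hochberg over 3557 sites and called under 0.05. The variance of a site in limma comes from the trend over all sites as well as from its own libraries. Before centring the trend prevailed. PYL6 and AT1G44740, with like mean tags, had SEs of 0.217 and 0.218, though their red SDs were 8.97 and 67.0 tags. Such SEs and p-values thus do not measure the spread over libraries at a single site. The fit was tested on simulated data. With no library raised, it recovered 100% of log2 folds of 1 and 71% of folds of 0.5 before centring. With red light replicate 1 raised by 0.6 on the log2 scale it recovered 69% and 8%, with 0 false calls. Centred, it then recovered 100% and 72%, with 14 false calls. The main fit is thus weak at folds near 0.5 where a library is raised in this way. Named sites follow one rule: the 8 highest called in all libraries, the 5 with the highest and the 5 with the lowest log2 fold among those called after centring, the 5 highest in all blue and no red libraries, up to 5 with a red consensus alone, listed genes, 5 genes with most sites and the 3 farthest inside. Others are said to be named after their values were seen. The replicates are biological per the labels. Alternatives changed the join, the distances, the peak threshold, the list lengths, the scaling, the pseudocount and the libraries used. With 7.99 to 11.9 M tags per library, the lowest peaks rested on about 43 to 80 unscaled tags.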

Additional observations from a re-analysis of the deposited data

How the results depend on the processing

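The number of deep sites follows the distances set in the rule. With 300 bp from the ends of the host gene deep sites made up 5.15% of all sites, with 274 red consensus sites. With 1000 bp there were 156 (1.52%), with 126 blue and 71 red consensus sites, 25 higher in blue light by limma, and a median above that of remaining sites by 8.60 tags in blue libraries and -3.33 in red ones. With 500 bp from other genes there were 591 (5.78%), with 483 and 297 consensus sites and a red median difference of 18.7 tags. With 3000 bp there were 148 (1.45%), with 122 and 67 consensus sites and median differences of 4.62 and -1.82 tags in blue and red libraries. With only peaks whose mock fold reached 8, 174 deep sites were left, with 161 blue and 71 red consensus sites, 42.9% of the deep and 41.6% of the remaining blue consensus sites in red light, median differences of 17.4 and 3.68 tags and 22 sites higher in blue light. With equally long lists there were 207, with 153 blue consensus sites, shares of 83.7% and 85.3%, a median difference of -4.90 tags in blue libraries and a difference in the share of called sites of 0.182 percentage points. A join by 100 bp or more kept 359 deep sites. Leaving out 1 library gave shares of 46.9% to 65.9% of deep and 42.5% to 63.2% of remaining blue consensus sites in red light. It gave 5 to 150 deep sites higher in blue and 0 to 1 in red light by limma, and after centring 8 to 14 toward blue and 10 to 17 toward red light, an alternative chosen after seeing the data. Leaving out a library makes its light's consensus need both remaining ones. Where the cause of a change is not in the alternative itself, the cause was not tested.

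Centring gave 12 deep sites toward blue and 17 toward red light, and tags per window width gave 120 of 129 (93.0%) higher in blue and 1 in red light, with 96.2% and 0.225% of all tested sites. PUP4, AT1G55550, AT2G22590, AT3G59850 and TGA4, higher in blue light with all libraries, lost the call when centred (0.12, 0.073, 0.069, 0.18 and 0.020, adjusted p = 0.157 to 0.909) and without any 1 library other than red light replicate 1, where PUP4 had folds of 0.54 to 0.66. Without red light replicate 1, 10 named sites gained a call: AT4G16146, AT5G37540, EXL3, DTA2, AT3G22410, AT1G71710, PHOT1, NCED6 and RUP1 toward blue light and AT2G06025 toward red light. In that setting 98.1% of all tested sites were higher in blue light. Centring turned the log2 fold to -0.078 at AT1G71710, -0.087 at DTA2, -0.15 at AT3G22410, -0.43 at NCED6, -0.061 at PHOT1, -0.32 at AT4G16146, -0.18 at AT5G37540, -0.51 at SWEET13, -0.17 at EXL3 and -0.45 at RUP1. Near 0, the fold turned at DAD1 (0.077 by width, 0.041 without blue light replicate 2, 0.080 without red light replicate 1), at SWEET13 (-0.14 to 0.17 with 1 library left out, below 0 without blue light replicates 1 and 2 and red light replicate 3), at NCED6 (-0.0083 to 0.30) and at RUP1 (-0.089 to 0.31), both lowest without red light replicate 3 and highest without red light replicate 1. The pseudocounts of 10 and 0.1 and a minimum mean of 100 tags changed no call at the named sites they tested. After centring, leaving out 1 library ended the call at a named site in 11 cases, with SWEET13 among these sites. Same-numbered replicates did not deviate together (correlations of -0.037, -0.087 and 0.045), and with the replicate number as a block 52 deep sites were higher in blue light and, centred, 12 and 19 leaned to blue and red light, and no call at a named site changed. The planned edgeR and DESeq2 tests were not run, since whole tag numbers were not used here.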
